A study of Mus musculus with 30 samples.

Results

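Type I interferon-stimulated genes were followed gene by gene in bulk RNA from MC38 tumours. The 40 genes are classical interferon-stimulated effectors, found in the count table by matching Ensembl identifiers to a list of mouse symbols. They are 40 of 55471 genes in the table, and all 40 passed the filter on low counts that left 15505 genes for testing. Each lies in GRCm38 coordinates on one of 15 chromosomes, with the Ifit genes together on chromosome 19, the Oas genes on chromosome 5, Rsad2 beside Cmpk2 on chromosome 12 and the Parp9, Dtx3l and Parp14 group on chromosome 16.

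MC38 is a mouse colon carcinoma line. Female C57BL/6 mice between 6 and 8 weeks old carried a subcutaneous tumour grown from 1000000 injected cells that were wild type (WT), or that had lost B2m (B2mKO) or Jak1 (Jak1KO) by mutation. On days 7, 10 and 13 after injection each mouse received 100 µg of aPD1, which blocks the T cell inhibitory receptor PD-1, or the IgG1 control, into a vein, and about 50 mg of tumour was frozen on day 14. Each of the 6 groups, WT IgG1, WT aPD1, B2mKO IgG1, B2mKO aPD1, Jak1KO IgG1 and Jak1KO aPD1, held 5 libraries. The mutations were in the injected cells, and no deletion is named for the host mice. How the mutant lines were made, and whether each was 1 clone, is not given in the sources used here. The labels do not say that the libraries came from separate mice, so p-values measure only the spread between these samples, which may be technical. In bulk tissue, fewer cells of a type and less RNA per cell cannot be told apart.

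Type I interferons are made when cells sense foreign or misplaced nucleic acid. They bind a receptor of the Ifnar1 and Ifnar2 chains, whose kinases Jak1 and Tyk2 phosphorylate STAT factors such as Stat2, which joins Irf9 in a complex that binds the interferon-stimulated response element (ISRE) in the promoters of genes that restrict viruses. Interferon gamma uses a separate receptor that also needs Jak1, and acts mainly through another element, GAS, so many of these genes can answer to both.

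Promoters are shown for some of the genes, to let the ISRE be seen beside the size of the Jak1KO change. They were picked, and are not the ends of the full ranking. RefSeq windows (GRCm38.p6) from 250 bases before to 50 bases after the transcription start were found for 31 of the 40 genes. A simple ISRE pattern, GAAA, then any 2 bases, then GAAA again, sought on both strands with overlapping matches counted, occurred in 13 of the 31 (41.9%), against 3.99% of 27025 genes (3.44% of all 32851 windows). A simple GAS pattern, TTCNNNGAA, which is its own reverse complement, occurred in 5 of the 31 (16.1%), against 9.55% of genes (8.3% of windows). The stretches below hold 180 bases in the gene's own direction, 5′ to 3′, ending just before the earlier of the RefSeq start and the first base of the Ensembl gene. Capitals mark ISRE matches, which run together where they overlap. Ifit1, Ifit3, Isg15 and Ddx60 have matches, and Ifi44, Epsti1 and Uba7 have no match to this strict pattern in their windows. The pattern misses GAAA repeats at other spacings, which were not counted. Past the printed end of Uba7, 63 bases before the start, its window reads tttcacttttggtttc, which holds such repeats on the other strand. Across the printed end of Ifi44, 51 bases before the start, its window reads tttcagttttcgtttc, which holds such repeats on the other strand.
Ifit1 (chr19:34640691-34640870, plus strand): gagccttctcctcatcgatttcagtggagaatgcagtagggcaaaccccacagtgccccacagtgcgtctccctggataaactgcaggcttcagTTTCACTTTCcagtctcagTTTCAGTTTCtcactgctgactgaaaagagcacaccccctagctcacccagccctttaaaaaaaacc
Ifit3 (chr19:34583349-34583528, plus strand): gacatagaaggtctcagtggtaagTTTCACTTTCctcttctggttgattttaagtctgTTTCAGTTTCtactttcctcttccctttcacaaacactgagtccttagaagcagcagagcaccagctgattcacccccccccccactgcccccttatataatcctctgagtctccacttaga
Isg15 (chr4:156200819-156200998, minus strand): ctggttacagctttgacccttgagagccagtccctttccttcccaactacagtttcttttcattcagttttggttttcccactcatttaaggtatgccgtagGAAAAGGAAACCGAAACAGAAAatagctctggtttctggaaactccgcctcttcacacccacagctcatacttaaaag
Ddx60 (chr8:61927907-61928086, plus strand): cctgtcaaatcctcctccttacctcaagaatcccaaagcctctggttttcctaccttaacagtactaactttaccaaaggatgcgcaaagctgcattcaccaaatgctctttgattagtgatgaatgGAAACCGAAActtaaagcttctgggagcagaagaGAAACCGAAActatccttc
Ifi44 (chr3:151749961-151750140, minus strand): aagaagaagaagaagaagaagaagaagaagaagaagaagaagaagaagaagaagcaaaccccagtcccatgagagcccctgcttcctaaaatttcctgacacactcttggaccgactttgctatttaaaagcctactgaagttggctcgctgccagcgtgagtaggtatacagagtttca
Epsti1 (chr14:77904059-77904238, plus strand): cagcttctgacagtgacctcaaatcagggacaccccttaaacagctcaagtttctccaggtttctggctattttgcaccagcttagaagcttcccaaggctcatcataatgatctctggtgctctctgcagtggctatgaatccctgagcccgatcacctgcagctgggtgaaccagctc
Uba7 (chr9:107975325-107975504, plus strand): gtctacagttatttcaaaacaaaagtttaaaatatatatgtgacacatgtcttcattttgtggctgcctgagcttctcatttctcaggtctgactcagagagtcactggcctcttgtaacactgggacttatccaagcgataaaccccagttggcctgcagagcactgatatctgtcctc
Counted from the start, the Ifit1 matches ran from -104 to -95 and from -85 to -76, and those of Ddx60 from -53 to -44 and from -19 to -10. Isg15 had 3 overlapping matches between -78 and -57, and the Ifit3 pair began at -156 and -122. A match is a description of letters, not evidence of binding. The median change in Jak1KO against WT tumours under IgG1, on the log2 scale, was -1.80 over the 13 genes with a match, -0.95 over the 18 with a window and no match, and -1.44 over the 9 without a window. The gene with the largest fall, Ifi44, was among the 18, as was Cmpk2 (-2.57). Eif2ak2 (-0.51), with the smallest called fall, was among the 13.

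Each knocked-out gene was low in its own tumours. Jak1 stood at 232 ± 28.7 CPM (mean ± SD, n = 5; CPM is counts per 1000000 counts of the scaled library) in WT IgG1 and 71.5 ± 4.98 in Jak1KO IgG1 tumours, and B2m at 3089.6 ± 911 and 617 ± 112 CPM in WT IgG1 and B2mKO IgG1. Reads from host cells and from any mutant transcript are in the remainder and cannot be told apart. Libraries held 17629795 to 25944701 counts. Median correlations of log2 CPM with the rest of the group were 0.976 to 0.990, apart from WT IgG1 replicate 3 (0.957) and B2mKO aPD1 replicate 2 (0.955), and counts of called members that rest on these are given with and without them. The epithelial markers that would mark a carcinoma were low, with a summed level of 1.93 to 31.2 CPM over 7 genes and 1 of the 7 listed at 0 in every group.

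Nearly all of the 40 genes were lowest in Jak1KO tumours, and many were higher in B2mKO than in WT tumours, 29 of them called under IgG1 and 16 under aPD1. Their summed level was 2908 to 6263 CPM in WT IgG1 and 4231 to 5459 in WT aPD1 libraries. It was 5797 to 9048 in B2mKO IgG1 and 4331 to 7729 in B2mKO aPD1. In Jak1KO tumours it was 1708 to 1873 with IgG1 and 1717 to 2126 with aPD1, so that no Jak1KO library reached the lowest library of another genotype. In each of the 10 Jak1KO libraries, 38 to 40 of the 40 genes lay below the WT IgG1 mean. Per kilobase of exon, the most abundant members in WT IgG1 tumours were Bst2 (285 RPKM), Isg15 (187 RPKM) and Ifi27l2a (136 RPKM), and the least abundant were Mx2 (4.95 RPKM) and Herc6 (4.11 RPKM). The spread within a group was widest in WT IgG1, where the median coefficient of variation was 36.2% over the members and 24.8% over all genes, and over the members it was narrowest in Jak1KO IgG1, at 11.3% (10.7% over all genes there and 10.2% in Jak1KO aPD1). Within WT IgG1 the members moved together by library: all 40 lay below the group mean in replicate 5, and none did in replicate 4.

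**Figure D1:**
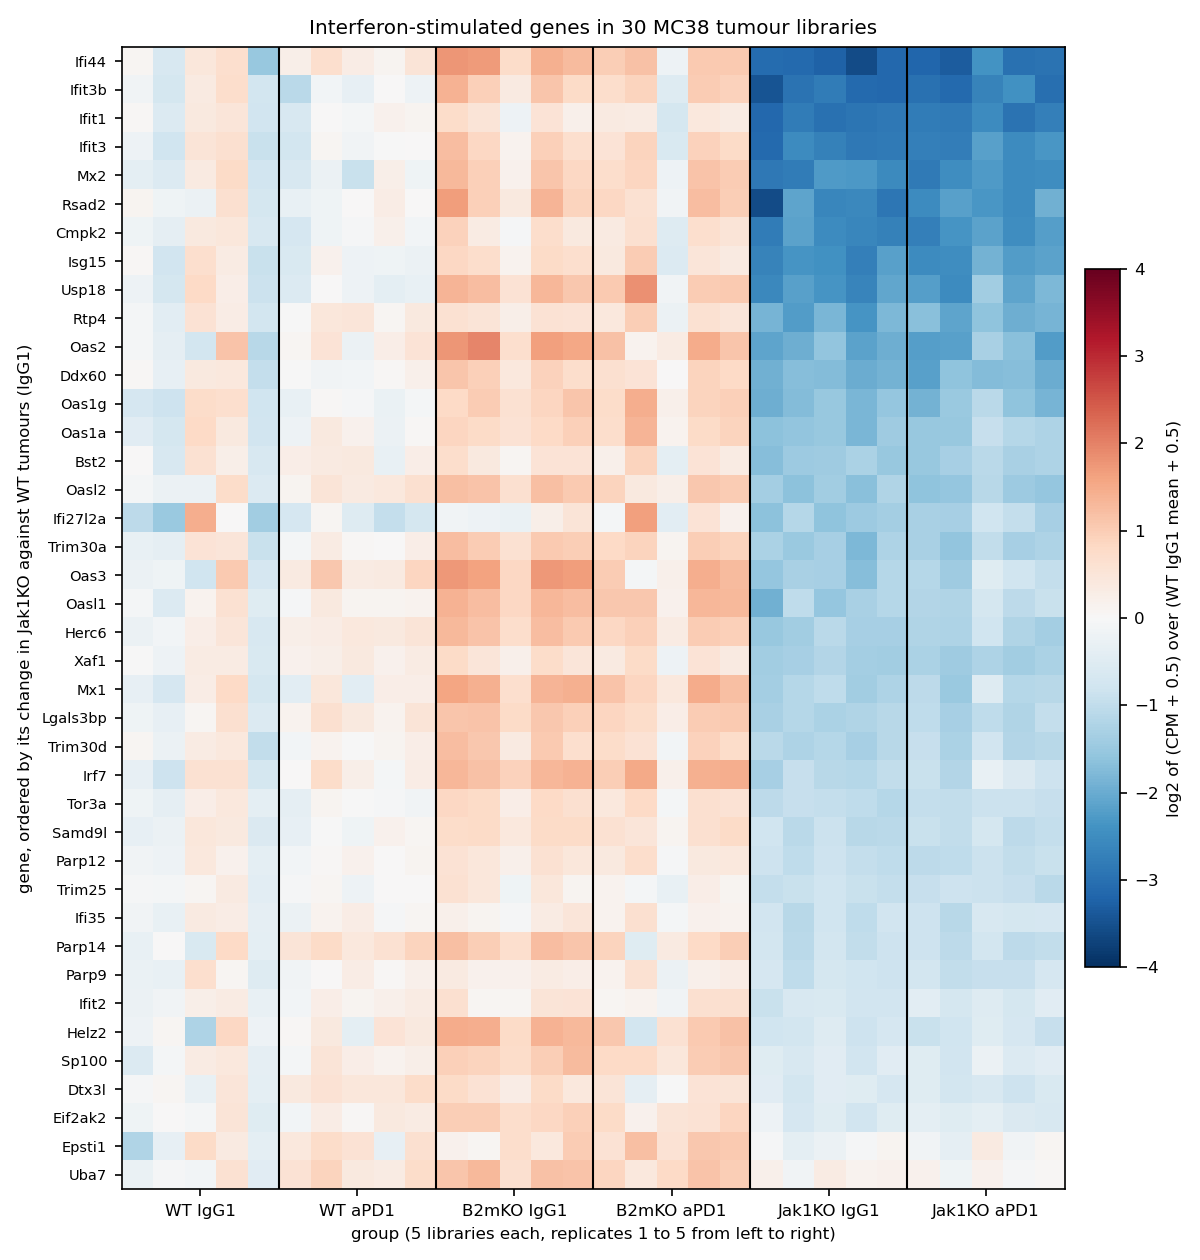
Heat map of the 40 genes (vertical axis, ordered by the Jak1KO against WT change under IgG1) in the 30 libraries (horizontal axis, 5 per group, replicates 1 to 5 from left to right), coloured by log2 of CPM plus 0.5 over the WT IgG1 mean plus 0.5. The 10 Jak1KO columns are blue for 38 to 40 genes each, and the depth of the colour falls from Ifi44 at the top to Uba7 at the bottom.

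In tumours given IgG1, 37 of the 40 genes were lower in Jak1KO than in WT (adjusted p under 0.05, quasi-likelihood test in edgeR, adjusted by Benjamini-Hochberg over all genes tested), where 11.0% of all tested genes were called lower. None was called higher by edgeR or DESeq2, and none was higher at an unadjusted p under 0.05. The median log2 fold change was -1.37 over the members and 0.002 over all genes. In 34 members every Jak1KO library lay below every WT library, which held for 8.09% of all genes. Without WT IgG1 replicate 3 and B2mKO aPD1 replicate 2 the count of members called lower was again 37, with 2108 of 15678 genes over the whole table. The fall ranged widely: 9 genes kept under 20% of the WT level, 18 kept 20% to 50%, 11 kept 50% to 75%, and 2, Epsti1 and Uba7, kept more.

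The IFIT family, tetratricopeptide-repeat proteins that hold foreign RNA or block its translation, held 3 of the 4 largest falls. Ifit1, which binds RNA without the host's cap methylation, was at 227, 151, 292, 307 and 130.1 CPM in the 5 WT IgG1 libraries and at 24.6, 31.6, 27.7, 28.5 and 30.0 CPM in Jak1KO IgG1. The groups were far apart, and the tight Jak1KO values were 12.9% of the WT level (-2.96 ± 0.23 log2 ± SE, adjusted p = 2.17e-10). Ifit3b was at 46.9, 31.6, 66.5, 84.3 and 31.3 CPM in WT IgG1 and 4.32, 6.30, 7.01, 5.59 and 5.52 in Jak1KO IgG1, a change of -3.18 ± 0.30 (adjusted p = 7.86e-09). Both groups of Ifit3b lay apart by several fold. Its neighbour Ifit3 was at 165, 109.7, 272, 299 and 103 and 21.6, 33.1, 28.5, 25.6 and 26.2 CPM (-2.81 ± 0.29, adjusted p = 3.84e-08). The pair are near-identical copies, and reads that map to both were left out, so the level of each is uncertain and may be too low. Ifit2, in the same cluster on chromosome 19, behaved differently in size: it was at 121, 127, 166, 178 and 115 CPM in WT IgG1 and 76.4, 90.8, 92.2, 82.4 and 82.4 in Jak1KO IgG1. The groups still did not overlap, but Ifit2 kept 60.1% of the WT level (-0.73 ± 0.15, adjusted p = 0.000597). All 4 fell, with a family median of -2.88.

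The ISG15 system attaches the ubiquitin-like protein Isg15 to other proteins. Isg15 was at 135, 77.0, 209, 163 and 71.0 CPM in WT IgG1 and 20.2, 24.9, 24.2, 19.1 and 28.5 in Jak1KO IgG1, without overlap (-2.49 ± 0.26). Usp18, which removes Isg15 and restrains the type I receptor, was at 35.2, 24.6, 70.9, 48.9 and 21.9 and 6.40, 8.54, 7.53, 6.09 and 9.24 CPM in the same groups (-2.41 ± 0.30). The Usp18 groups were apart as well. The ligase Herc6, at 32.2, 35.5, 45.7, 53.0 and 24.3 CPM in WT IgG1 and 13.0, 14.1, 17.8, 14.8 and 14.9 in Jak1KO IgG1 (-1.35 ± 0.16), fell less. The same held for Trim25, a cofactor of RNA sensing, at 198, 194, 214, 264 and 154 and 105, 109.7, 118, 109.9 and 105 CPM (-0.90 ± 0.13). Uba7, the enzyme that activates Isg15, was the only one of the 40 with a fitted change above 0. It was at 30.5, 36.0, 34.6, 57.1 and 26.6 CPM in WT IgG1 and 42.8, 33.7, 46.5, 40.6 and 41.6 in Jak1KO IgG1, overlapping fully, with a change of 0.15 ± 0.16 (adjusted p = 0.540). The Uba7 exons overlap another annotated gene, Gm20661, and without strand its reads cannot be told apart.

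All 6 genes of the oligoadenylate synthetase family fell, with a median of -1.53. Its active enzymes sense double-stranded RNA and switch on RNA degradation. Oas2 went from 44.7, 37.1, 28.2, 105 and 21.9 CPM in WT IgG1 to 10.6, 12.0, 15.4, 10.2 and 11.9 in Jak1KO IgG1 (-1.98 ± 0.33, adjusted p = 9.29e-05). Oas3 went from 42.0, 44.2, 28.6, 102 and 31.1 to 16.6, 20.0, 19.3, 15.0 and 22.0 CPM (-1.41 ± 0.30). In both genes the WT spread came largely from replicate 4, and every Jak1KO library was below the lowest WT library. Oas1g was at 10.00, 8.91, 27.0, 25.7 and 9.01 CPM in WT IgG1 and 3.77, 4.50, 5.36, 4.15 and 5.14 in Jak1KO IgG1 (-1.80 ± 0.28). Its close copy Oas1a was at 31.0, 26.0, 75.1, 56.7 and 25.0 and 13.3, 13.9, 14.7, 11.8 and 15.8 CPM (-1.62 ± 0.24). Reads that map to both of this pair were left out, so the level of each is uncertain. Both lost most of their WT level in every library. The Oas-like gene Oasl2 was at 204, 183, 182, 356 and 146 and 82.3, 68.0, 81.7, 67.1 and 93.6 CPM (-1.45 ± 0.19). Oasl1, known for restraining translation of Irf7, was at 36.3, 26.3, 42.8, 59.5 and 27.3 and 9.68, 18.6, 12.9, 15.5 and 17.1 CPM (-1.38 ± 0.21). None of these 4 genes had overlapping groups.

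The dynamin-like GTPases that trap viral nucleoproteins differed in size. Mx2 was at 13.6, 12.1, 23.0, 30.5 and 10.3 CPM in WT IgG1 and 2.02, 2.15, 3.29, 3.28 and 2.68 in Jak1KO IgG1 (-2.73 ± 0.30, adjusted p = 1.67e-07), and Mx1 was at 25.1, 19.8, 39.5, 55.7 and 19.4 and 12.3, 14.3, 15.4, 11.8 and 13.3 CPM (-1.25 ± 0.26). Neither gene's groups overlapped. Rsad2, which encodes viperin, an enzyme that makes a chain-terminating nucleotide, was at 269, 222, 209, 387 and 152 CPM in WT IgG1 and 20.3, 56.6, 40.4, 41.2 and 32.7 in Jak1KO IgG1 (-2.70 ± 0.28, adjusted p = 3.84e-08). Cmpk2, a nucleotide kinase next to Rsad2 on chromosome 12, was at 94.7, 82.8, 142, 147 and 68.8 and 14.9, 24.1, 18.1, 17.0 and 15.9 CPM (-2.57 ± 0.23). The 2 neighbours thus kept similar shares of the WT level, 15.4% and 16.8%.

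**Figure D2:**
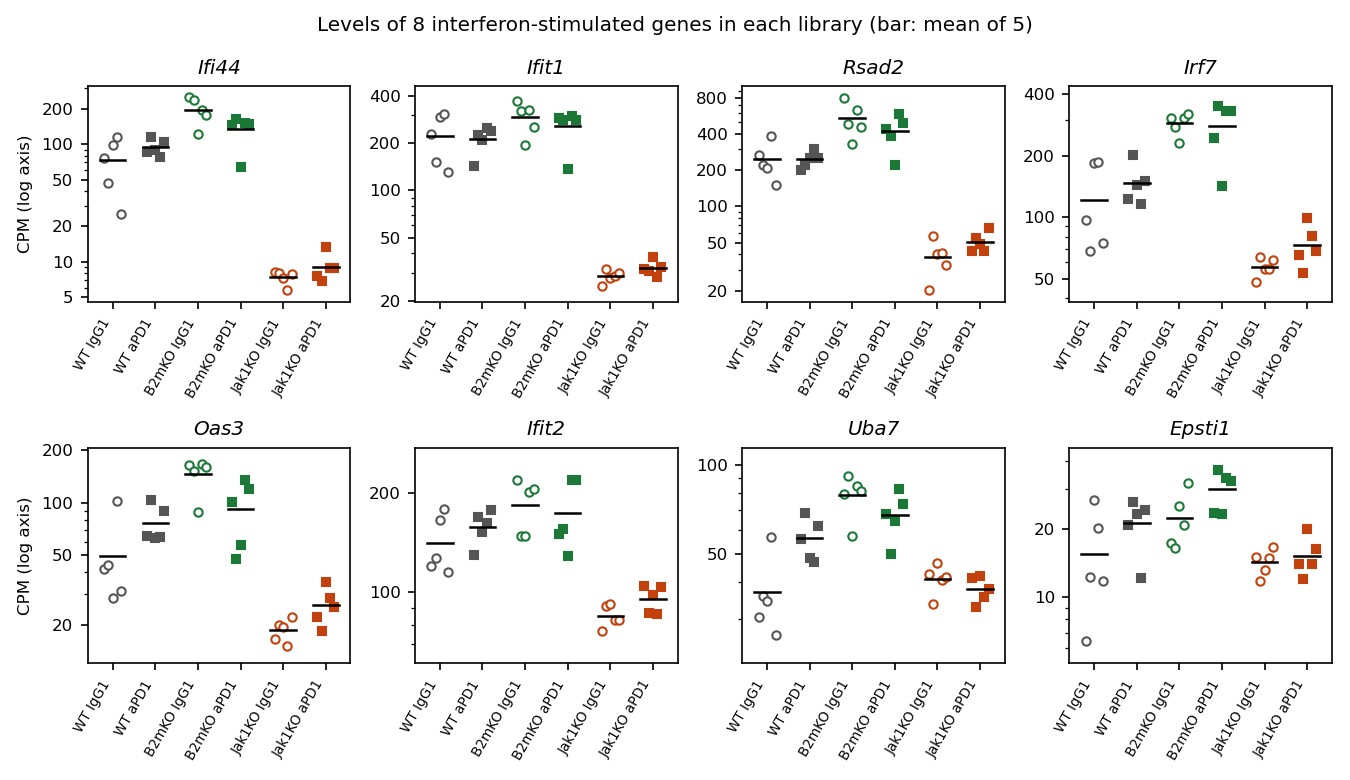
Levels of 8 of the genes in each of the 30 libraries, in CPM on a log axis, with IgG1 as open circles, aPD1 as filled squares and a bar at the mean of 5. Ifi44, Ifit1 and Rsad2 sit far lower in all 10 Jak1KO libraries, Irf7, Oas3 and Ifit2 sit lower by less, and Uba7 and Epsti1 overlap between Jak1KO IgG1 and WT IgG1.

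The ADP-ribosylation group fell modestly, with all 4 genes called and a median of -0.83. Parp14 was at 161, 199.9, 129, 341 and 149 CPM in WT IgG1 and 118, 93.3, 118, 99.2 and 109 in Jak1KO IgG1 (-0.86 ± 0.22, adjusted p = 0.00577). Every Jak1KO value of Parp14 was below every WT value. Parp12 was at 205, 199, 306, 256 and 175 and 129, 113, 128, 118 and 113 CPM (-0.93 ± 0.12), and Parp9 at 162, 159, 314, 206 and 137 and 122, 96.4, 120.1, 112 and 110.2 CPM (-0.80 ± 0.16). Dtx3l, a ubiquitin ligase that works bound to Parp9, was at 153, 169, 128, 223 and 121 and 115, 94.8, 117, 113 and 100.0 CPM (-0.56 ± 0.15, adjusted p = 0.0114), and its call was lost without WT IgG1 replicate 4. Parp9 and Dtx3l have overlapping exons, so reads there cannot be told apart.

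Among regulators, Irf7, the factor that amplifies type I interferon production, was at 96.3, 68.0, 185, 185 and 74.4 CPM in WT IgG1 and 48.2, 63.8, 55.9, 55.4 and 61.5 in Jak1KO IgG1 (-1.09 ± 0.25, adjusted p = 0.00249). Its exons overlap Phrf1. Eif2ak2, the kinase PKR that stops translation on double-stranded RNA, was at 78.5, 88.8, 83.8, 125 and 62.4 and 76.2, 55.0, 62.5, 51.5 and 63.2 CPM. The Eif2ak2 groups overlapped, its fall was the smallest of the 37 (-0.51 ± 0.14, adjusted p = 0.0130), and the call was lost without WT IgG1 replicate 4. Trim30a was at 82.5, 79.5, 150.1, 145 and 55.4 CPM in WT IgG1 and 41.9, 36.4, 40.9, 29.4 and 43.2 in Jak1KO IgG1 (-1.42 ± 0.20), and its close copy Trim30d at 47.3, 38.6, 57.0, 60.6 and 22.7 and 21.4, 19.0, 20.1, 17.8 and 20.8 CPM (-1.19 ± 0.20). These related TRIM genes fell without overlap, and reads that map to both were left out, so the level of each is uncertain.

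At the membrane and outside the cell, the receptor transporter Rtp4 was at 65.5, 50.9, 102, 83.7 and 41.1 CPM in WT IgG1 and 18.4, 14.2, 18.8, 13.1 and 19.4 in Jak1KO IgG1 (-2.03 ± 0.21). Bst2, or tetherin, which holds budding virus at the surface, was at 262, 164, 395, 304 and 164 and 78.0, 94.0, 96.5, 107 and 90.7 CPM (-1.47 ± 0.21). The secreted glycoprotein Lgals3bp was at 319, 285, 376, 552 and 244 and 143, 159.8, 147, 153 and 165 CPM (-1.21 ± 0.16). All 3 fell without overlap, Rtp4 by the most.

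The remaining 10 effectors spanned the whole range. Ifi44, an interferon-induced protein, was at 76.7, 46.7, 98.8, 116 and 25.4 CPM in WT IgG1 and 8.15, 7.99, 7.29, 5.68 and 7.86 in Jak1KO IgG1. This was the largest fall of the 40, to 10.2% of the WT level (-3.30 ± 0.31, adjusted p = 1.03e-08), although WT replicate 5, at 25.4 CPM, was well below the other WT libraries. The helicase Ddx60 was at 59.8, 46.2, 75.4, 77.3 and 29.8 and 15.0, 17.3, 16.8, 14.3 and 15.3 CPM in the same groups (-1.87 ± 0.19), and the apoptosis regulator Xaf1 at 100.0, 88.2, 128, 127 and 66.2 and 38.6, 40.4, 44.6, 39.5 and 38.2 CPM (-1.34 ± 0.15). Both fell without overlap, and the next 3 did so by less. The torsin ATPase Tor3a was at 98.8, 86.8, 134, 150.3 and 85.2 and 53.9, 58.2, 56.8, 54.6 and 50.3 CPM (-1.02 ± 0.15). Samd9l, an antiviral protein that limits growth, was at 72.8, 77.7, 126, 122 and 61.5 and 52.6, 43.2, 50.7, 42.6 and 43.7 CPM (-0.98 ± 0.15). Ifi35 was at 41.0, 37.3, 58.2, 56.1 and 35.3 and 26.8, 20.9, 26.2, 22.3 and 26.3 CPM (-0.89 ± 0.15). Among these 10 genes, overlap began with the next. Sp100, a nuclear body protein, was at 38.6, 53.3, 70.8, 76.5 and 43.7 CPM in WT IgG1 and 40.3, 36.3, 40.8, 33.3 and 40.8 in Jak1KO IgG1 (-0.56 ± 0.15, adjusted p = 0.0102), with some overlap.

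For 3 of these effectors the call depended on a library or was not made. Ifi27l2a, a mitochondrial protein, was at 30.1, 22.4, 175, 63.9 and 23.8 CPM in WT IgG1 and 19.7, 28.3, 20.4, 22.8 and 24.5 in Jak1KO IgG1 (-1.44 ± 0.42, adjusted p = 0.0160). Replicate 3 alone lifted the WT mean, and without it the change of Ifi27l2a was -0.60 and was not called. The helicase Helz2 was at 93.4, 112, 44.9, 191 and 91.7 and 61.5, 64.6, 74.6, 59.9 and 66.6 CPM (-0.71 ± 0.28, adjusted p = 0.0792), and here replicate 3 was the lowest WT library; without it the change of Helz2 was -0.90 and was called. Epsti1, named for its induction where epithelium meets stroma, was at 6.41, 12.3, 26.8, 20.1 and 11.8 CPM in WT IgG1 and 15.1, 11.8, 13.2, 14.9 and 16.6 in Jak1KO IgG1. These values overlapped throughout (-0.11 ± 0.26, adjusted p = 0.810), and the sign of the Epsti1 change turned without WT IgG1 replicate 3 (0.18) and without replicate 4 (0.00618).

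Under aPD1, 38 of the 40 genes were lower in Jak1KO than in WT tumours, where 12.4% of all tested genes were called lower. None was higher by edgeR, by DESeq2 or at an unadjusted p under 0.05. The median was -1.44, against 0.02 over all genes, and 38 members had groups without overlap, against 10.3% of all genes. Ifi44 was at 85.5, 116, 89.5, 78.1 and 105 CPM in WT aPD1 and 7.58, 6.78, 13.3, 8.77 and 8.86 in Jak1KO aPD1 (-3.39 ± 0.31, 9.55% of WT). Ifit1 was at 143, 225, 209, 250.3 and 238 and 31.6, 30.9, 38.1, 28.4 and 32.7 CPM (-2.72 ± 0.23). Both genes kept the wide gap they had under IgG1. Ifit3b was at 24.3, 48.5, 41.4, 53.0 and 44.8 CPM in WT aPD1 and 6.21, 5.54, 7.76, 9.25 and 6.04 in Jak1KO aPD1 (-2.61 ± 0.29), and Ifit3 at 115, 201, 172, 187 and 191 and 27.9, 27.3, 42.1, 32.9 and 37.3 CPM (-2.37 ± 0.28). Mx2 was at 11.3, 15.2, 9.37, 20.9 and 15.8 and 2.10, 2.82, 3.29, 2.71 and 2.82 CPM (-2.40 ± 0.30), and Rsad2 at 202, 219, 253, 302 and 252 and 42.7, 54.8, 48.8, 42.9 and 65.7 CPM (-2.27 ± 0.27). These were the 6 largest falls under aPD1, the same 6 genes as under IgG1.

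Uba7, which was not called under IgG1, was lower in Jak1KO under aPD1. It was at 55.9, 68.4, 48.2, 46.7 and 62.2 CPM in WT aPD1 and 41.4, 33.1, 41.9, 35.7 and 37.9 in Jak1KO aPD1, without overlap (-0.57 ± 0.16, adjusted p = 0.0122). Parp14 was at 277, 332, 265, 302 and 361 and 111, 94.5, 117, 93.7 and 98.0 CPM (-1.58 ± 0.22), and Dtx3l was at 210.1, 239, 219.8, 218 and 266 and 114, 96.3, 102, 90.2 and 104 CPM (-1.19 ± 0.16). The fitted falls of Parp14 and Dtx3l were larger than under IgG1; the test of that difference is given with the aPD1 effect and none passed. Helz2 was called here (-0.98 ± 0.28, adjusted p = 0.0125). The 2 genes not called were Epsti1, at 20.8, 26.2, 23.3, 12.1 and 24.3 CPM in WT aPD1 and 14.0, 12.1, 19.9, 14.0 and 16.3 in Jak1KO aPD1 (-0.48 ± 0.26, adjusted p = 0.197), and Ifi27l2a, at 39.7, 66.0, 44.1, 32.5 and 38.7 and 25.2, 24.7, 35.8, 32.0 and 24.8 CPM (-0.63 ± 0.41, adjusted p = 0.303). Both overlapped.

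In Jak1KO against WT, the order of the genes was similar under both antibodies, which used separate libraries. Across the 40 genes the Jak1KO against WT changes under IgG1 and aPD1 had a Pearson r of 0.919 and a Spearman rho of 0.872, as a description, since genes of 1 library share its depth and cells. The median difference between the paired values was 0.21 and the largest was 0.81, for Ifi27l2a. Between log2 RPKM in WT aPD1 and the change under IgG1, over the 40 genes, r was -0.128 and rho -0.113. The count lower under both antibodies was 36, given without the share of all genes lower under both.

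**Figure D3:**
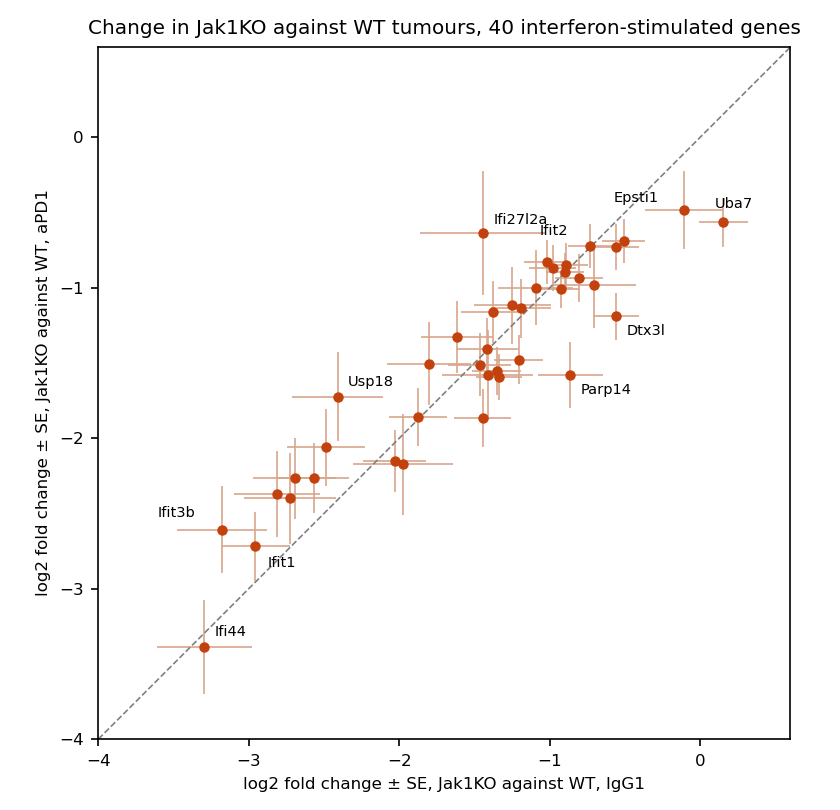
Log2 fold change ± SE of each of the 40 genes in Jak1KO against WT tumours under IgG1 (horizontal axis) and under aPD1 (vertical axis), with a dashed line of equality. Points lie along the line from Ifi44 at the lower left to Uba7 and Epsti1 at the upper right, with Ifi27l2a farthest above it.

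Beside the Jak1KO result under IgG1, 3 of 9 T cell markers were higher than in WT (sum 4.56 to 15.6 CPM in WT IgG1, 9.34 to 42.2 in Jak1KO IgG1), as was 1 of 4 NK cell markers, while 1 of 7 fibroblast markers was lower. The B cell marker that could be tested was higher under both antibodies. Under IgG1, 1 of 10 macrophage and 1 of 4 neutrophil markers were higher and 1 of 5 endothelial markers was lower. Under aPD1, 3 of 7 fibroblast markers were higher in Jak1KO, 2 of 6 conventional dendritic cell markers were lower and 1 higher, 1 of 10 macrophage markers was higher and 1 lower, and 1 marker each of NK cells, endothelium and epithelium was lower. Of the keratinocyte markers 1 was higher and 1 lower under each antibody. The sum of macrophage and monocyte markers overlapped, at 774 to 2867 CPM in WT IgG1 and 1615 to 2152 in Jak1KO IgG1. Their part in the Jak1KO result was not tested.

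B2m encodes the light chain of MHC class I, and B2mKO cells keep Jak1. Under IgG1, 29 of the 40 were called higher, where 9.40% of all tested genes were called higher. None was lower by edgeR, by DESeq2 or at an unadjusted p under 0.05. The median log2 fold change was 0.91, against -0.001 over all genes. In 9 members (Uba7, Herc6, Oasl1, Irf7, Eif2ak2, Trim30a, Lgals3bp, Ifi44 and Sp100) every B2mKO library was above every WT library, against 5.80% of all genes. Without WT IgG1 replicate 3 and B2mKO aPD1 replicate 2 the count called higher was 38, and in a fit of only the 2 groups compared it was 21. Over all genes, 2075 of 15678 and 646 of 14364 were called higher in these settings, against 1457 of 15505 in the main fit. The WT IgG1 libraries used here also serve the Jak1KO comparison. Against them 27 genes were both lower in Jak1KO and higher in B2mKO, a joint count given without its share of all genes.

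The 6 oligoadenylate synthetase genes, both Mx genes, both regulators and both Trim30 genes were all called higher in B2mKO under IgG1. Oas2 had the largest rise: it was at 163, 186, 76.3, 149.9 and 139.8 CPM in B2mKO IgG1, against 21.9 to 105 in WT IgG1 (1.60 ± 0.32, adjusted p = 0.000762). Oas3 was at 165, 153, 88.8, 166 and 161 CPM (1.57 ± 0.30, adjusted p = 0.000404). For Oas2 and Oas3 the groups overlapped through WT replicate 4 and B2mKO replicate 3. Ifi44 was at 251, 237, 122, 197 and 177 CPM in B2mKO IgG1, above all WT values (1.44 ± 0.28, adjusted p = 0.000638). Mx1 was at 95.7, 86.2, 50.6, 81.9 and 86.7 CPM (1.33 ± 0.25), Helz2 at 299, 293, 181, 279.8 and 263 CPM (1.30 ± 0.28) and Irf7 at 307, 277, 229.9, 306 and 319 CPM (1.24 ± 0.25). Irf7 stood apart from WT in every library, and Mx1 and Helz2 did not.

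Uba7, not called in Jak1KO under IgG1, rose in B2mKO to 79.7, 91.5, 57.6, 84.6 and 81.4 CPM, without overlap (1.10 ± 0.16, adjusted p = 2.17e-05). Eif2ak2, with the smallest called fall in Jak1KO, was at 175, 175, 144, 157 and 171 CPM, also without overlap (0.91 ± 0.14). Sp100 was at 110.0, 105, 94.9, 112 and 136 CPM, again above every WT value (0.98 ± 0.15). The smallest p of the 40 belonged to the ligase Herc6, at 94.0, 85.0, 62.8, 90.8 and 79.4 CPM (1.11 ± 0.16, adjusted p = 1.11e-05). Oasl1 was at 102, 92.0, 68.6, 97.8 and 90.7 CPM (1.23 ± 0.20), Trim30a at 244, 207, 156, 213 and 202 CPM (1.00 ± 0.20) and Lgals3bp at 773, 781, 609, 744 and 694 CPM (1.02 ± 0.16). Each of these 4 also lay above every WT library.

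Of the IFIT family, which fell most in Jak1KO, 2 of 4 were called higher in B2mKO under IgG1. Ifit1 was at 368, 319, 194, 323 and 253 CPM in B2mKO IgG1, overlapping WT (0.40 ± 0.21, adjusted p = 0.187), and Ifit2 was at 219, 148, 148, 200.3 and 205 CPM (0.38 ± 0.14, adjusted p = 0.0597). Ifit3b (0.97 ± 0.27) and Ifit3 (0.81 ± 0.27) were called; leaving out any 1 of WT IgG1 replicates 1, 2 and 5 or B2mKO IgG1 replicates 1, 2 and 4 lost the Ifit3 call. Rsad2 rose, to 798, 484, 327, 633 and 456 CPM (1.12 ± 0.26), while Cmpk2, its neighbour, was not called (0.50 ± 0.22, adjusted p = 0.101). Isg15 was at 234, 215, 144, 226 and 208 CPM (0.65 ± 0.25, adjusted p = 0.0600). The others not called were Trim25 (0.31 ± 0.13), Parp9 (0.26 ± 0.16), Bst2 (0.47 ± 0.21), Rtp4 (0.51 ± 0.20), Ifi27l2a (0.07 ± 0.41), Ifi35 (0.23 ± 0.15) and Epsti1 (0.54 ± 0.26). The called members not yet named, Oas1a, Oas1g, Oasl2, Mx2, Usp18, Parp12, Parp14, Dtx3l, Trim30d, Xaf1, Samd9l, Ddx60 and Tor3a, rose by 0.48 (Parp12) to 1.15 (Usp18).

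Under aPD1, 16 of the 40 were called higher in B2mKO than in WT, where 9.86% of all genes were called higher, and 20 without the 2 libraries that stood apart. None was lower by edgeR, by DESeq2 or at an unadjusted p under 0.05. The median was 0.53 (all genes -0.003), and 38 of the 40 changes were above 0. All 16 were also called under IgG1, a joint count given without its share of all genes. Only Oas1g had groups without overlap, against 5.37% of all genes: it was at 13.0, 16.6, 15.5, 13.3 and 15.3 CPM in WT aPD1 and 27.4, 45.0, 18.6, 30.4 and 31.4 in B2mKO aPD1 (1.05 ± 0.26, adjusted p = 0.00410). Usp18 rose most, from 27.6, 40.5, 34.6, 30.5 and 32.9 CPM in WT aPD1 to 84.6, 145, 36.6, 82.2 and 84.5 in B2mKO aPD1 (1.38 ± 0.28, adjusted p = 0.000817). The third B2mKO library kept Usp18 from separating. Mx2 was at 29.5, 32.7, 15.6, 40.4 and 36.9 CPM in B2mKO aPD1 (1.10 ± 0.27) and Ifit3b at 85.4, 96.0, 36.0, 106 and 99.9 CPM (1.00 ± 0.27). Mx1 was at 23.8, 43.7, 23.7, 38.3 and 38.0 CPM in WT aPD1 and 70.9, 58.5, 42.8, 90.0 and 74.4 in B2mKO aPD1 (1.01 ± 0.25), and Irf7 at 122, 202, 143, 116 and 151 and 243, 351, 142, 330.4 and 331 CPM (0.93 ± 0.25). The others called were Herc6, Oas1a, Oasl1, Rsad2, Eif2ak2, Trim30a, Samd9l, Sp100, Ddx60 and Tor3a.

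B2mKO aPD1 replicate 3 was the low library of that group for most of these genes. Without it 22 members were called higher, and without replicate 4 of the same group 11. Over all genes these counts were 1600 of 15713 and 1306 of 15704. Ifi44 was at 145, 165, 63.5, 151 and 150.2 CPM in B2mKO aPD1, with the third library below all 5 of WT aPD1 (0.51 ± 0.28, adjusted p = 0.215). Oas3 was at 102, 47.4, 57.3, 135 and 121 CPM against 64.4, 104, 62.7, 64.1 and 90.4 in WT aPD1 (0.26 ± 0.29). Oas2 (0.66 ± 0.32) was not called either, so that Oas2 and Oas3, the 2 largest rises under IgG1, were both uncalled here. Parp14 (-0.05 ± 0.22) and Dtx3l (-0.26 ± 0.15) were the 2 members below 0. Across the 40 genes the B2mKO against WT changes under IgG1 and aPD1 had a Pearson r of 0.353 and a Spearman rho of 0.408, as a description. Oas3 had the largest difference, 1.31.

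Markers of other cell types moved beside the B2mKO result. Under IgG1, 5 of 7 fibroblast markers were higher in B2mKO than in WT, and their summed level was 1837 to 2467 CPM in WT IgG1 and 2542 to 5103 in B2mKO IgG1. The same number were higher under aPD1 (1286 to 2085 CPM in WT, 2951 to 4392 in B2mKO). NK cell markers were higher for 3 of 4 under IgG1 (sum 4.15 to 5.78 CPM in WT, 5.24 to 13.0 in B2mKO) and 1 of 4 under aPD1. Among neutrophil markers, 1 of 4 tested was higher under each antibody. The sum over 6 genes was 132 to 282 CPM in WT IgG1 and 271 to 527 in B2mKO IgG1. That sum was mostly Mmp9, with 168413 counts over all libraries against 7993 for Csf3r and 235 for S100a8. Among macrophage and monocyte markers 1 of 10 was higher under IgG1, and among endothelial markers 4 of 5 were higher under aPD1. Adipocyte markers were lower for 1 of 3 tested under IgG1, with a sum over 4 genes of 12.7 to 60.4 CPM in WT and 8.76 to 9.77 in B2mKO. Keratinocyte markers were split, with 1 of 3 tested higher and 1 lower under each antibody, and a sum over 5 genes of 7.12 to 14.1 CPM in WT IgG1 and 15.5 to 44.9 in B2mKO IgG1. That sum was mostly Trp63 (6792 counts over all libraries) and Krt10 (2767), against 389 for Krt14. The list for plasmacytoid dendritic cells, known for type I interferon production, shares Bst2 with the 40. Without Bst2 the median sum was 155 CPM in WT IgG1 and 266 in B2mKO IgG1. It was mostly Tcf4, with 113720 counts over all libraries against 8468 for Cox6a2 and 132 for Siglech. Siglech, the defining marker of the list, had group medians of 0.11 to 0.25 CPM. The part of these markers in the B2mKO result was not tested.

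**Figure D4:**
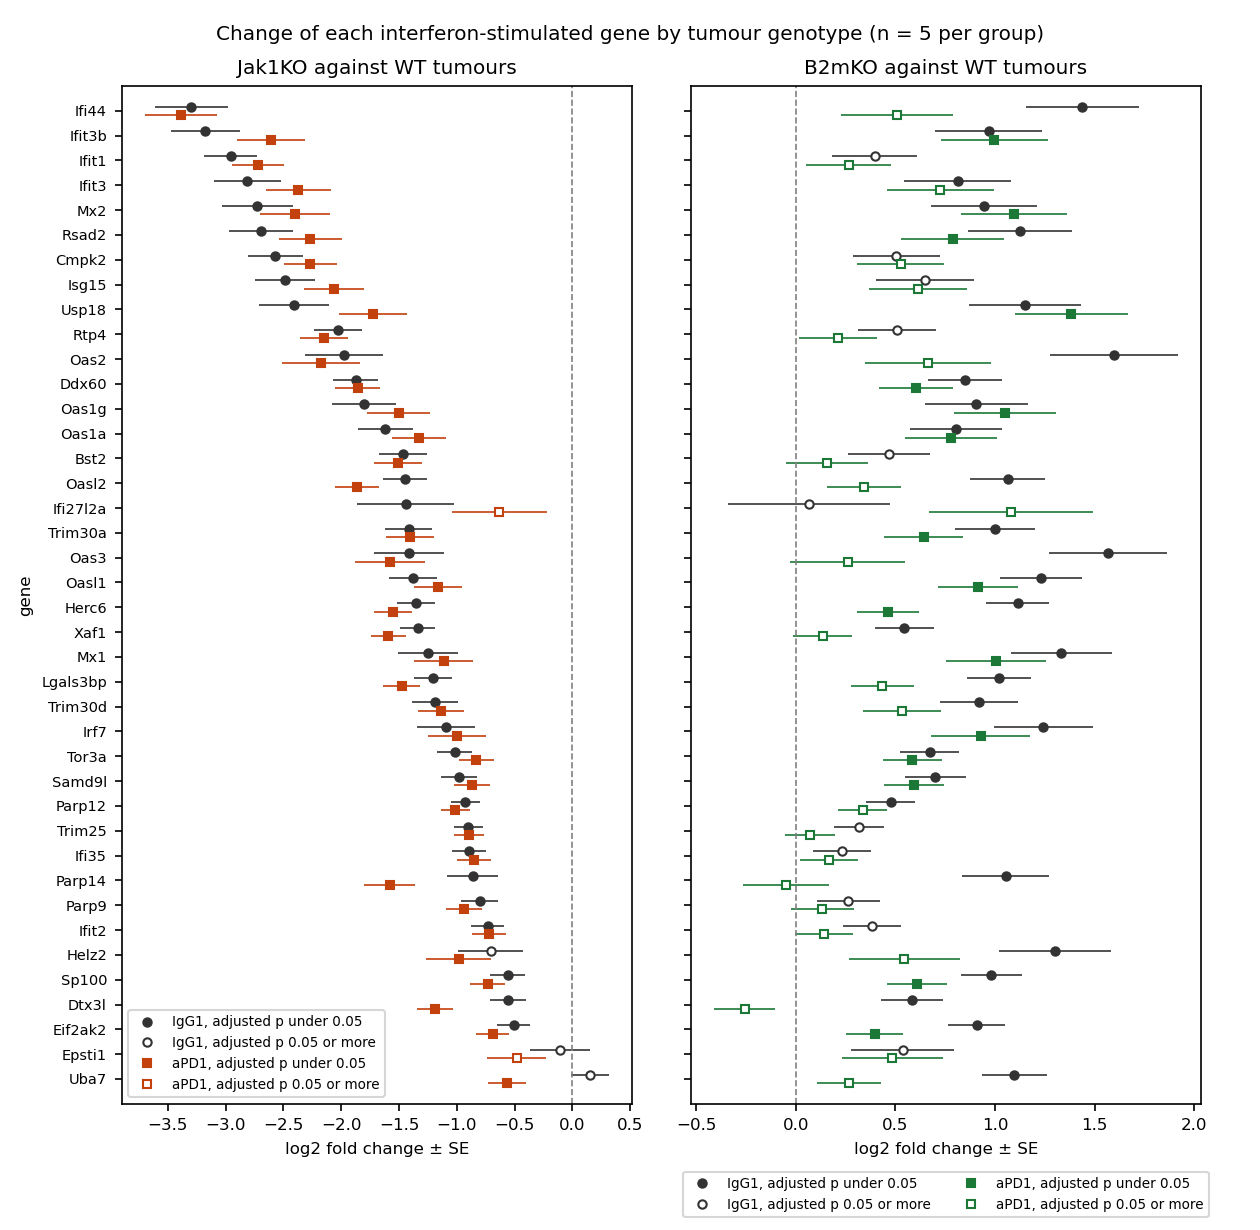
Log2 fold change ± SE (horizontal axes) of the 40 genes (vertical axis) in Jak1KO against WT tumours (left) and B2mKO against WT tumours (right), with circles for IgG1, squares for aPD1 and filled symbols for an adjusted p under 0.05. On the left 37 circles and 38 squares are filled, all but the uncalled Uba7 circle below 0, and on the right 29 circles and 16 squares are filled, all above 0.

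Between the 2 knockouts the gap was widest. Under IgG1, 39 of the 40 genes were lower in Jak1KO than in B2mKO tumours (14.5% of all genes), with a median of -2.37 against 0.02 over all genes, and 39 had groups without overlap (14.0% of all genes). Ifi44 in Jak1KO IgG1 was at 3.76% of its B2mKO IgG1 level (-4.73 ± 0.33), followed by Ifit3b (-4.14 ± 0.31), Rsad2 (-3.82 ± 0.29), Mx2 (-3.67 ± 0.31), Ifit3 (-3.62 ± 0.30) and Oas2 (-3.57 ± 0.35). The B2mKO IgG1 values not given above were 138, 102, 66.6, 113 and 89.6 CPM for Ifit3b, 45.1, 35.4, 20.3, 38.8 and 32.2 CPM for Mx2 and 445, 334, 208, 371 and 305 CPM for Ifit3. Epsti1 was the gene not called (-0.64 ± 0.26, adjusted p = 0.0625). Under aPD1, all 40 were lower (15.1% of all genes), also without B2mKO aPD1 replicate 2, with a median of -1.92 and 39 without overlap (10.6% of all genes). There Ifi44 changed by -3.89 ± 0.32, Ifit3b by -3.60 ± 0.30 and Mx2 by -3.50 ± 0.31. Usp18, at 8.43, 6.63, 14.9, 8.91 and 11.2 CPM in Jak1KO aPD1, changed by -3.11 ± 0.31. Ifit3 was at 276, 351, 124, 359.9 and 320.3 CPM in B2mKO aPD1 (-3.10 ± 0.29) and Rsad2 at 435, 381, 223, 588 and 489.7 CPM (-3.05 ± 0.28). The smallest change was -0.83 ± 0.16, for Uba7, and Helz2 was the gene whose groups overlapped, through B2mKO aPD1 replicate 2. None was higher in either comparison by edgeR, DESeq2 or at an unadjusted p under 0.05. Beside this gap, fibroblast markers were lower in Jak1KO for 4 of 7 under IgG1 (sum 2542 to 5103 CPM in B2mKO, 1447 to 1872 in Jak1KO) and 3 of 7 under aPD1. NK cell markers were lower for 1 of 4 under IgG1 and 3 of 4 under aPD1, neutrophil markers for 2 and 1 of 4, endothelial markers for 1 and 3 of 5, and epithelial markers for 1 and 3 of 5. Adipocyte markers were higher for 2 of 3 tested under IgG1, as was the B cell marker, and skeletal muscle markers for 2 of 6 under aPD1. The list for plasmacytoid dendritic cells had 2 of 3 tested lower under each antibody and 1 higher under aPD1, and the other lists had at most 1 marker called in a direction. Their part in the gap was not tested.

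Few of these genes were called between aPD1 and IgG1. In WT tumours 2 of the 40, Uba7 and Dtx3l, were higher with aPD1 than with IgG1, where 3.73% of all tested genes were called higher. None was lower by edgeR, by DESeq2 or at an unadjusted p under 0.05, and the median change was 0.11 (all genes -0.03). That median was -0.017 without WT IgG1 replicate 5 and 0.27 without replicate 4. Uba7 had 30.5, 36.0, 34.6, 57.1 and 26.6 CPM in WT IgG1 and 55.9, 68.4, 48.2, 46.7 and 62.2 in WT aPD1 (0.61 ± 0.16, adjusted p = 0.0274). Dtx3l had 153, 169, 128, 223 and 121 and 210.1, 239, 219.8, 218 and 266 CPM (0.54 ± 0.15, adjusted p = 0.0415). In both genes WT IgG1 replicate 4 overlapped the aPD1 libraries. Parp14 (0.65 ± 0.22, adjusted p = 0.0902) and Oas3 (0.64 ± 0.29, adjusted p = 0.246) had larger fitted changes than these 2 and were not called.

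The calls in WT tumours depended on single libraries. Without WT IgG1 replicate 4, the library highest for most of these genes, 7 members were called higher with aPD1, namely Uba7, Dtx3l, Herc6, Oas3, Oasl2, Parp14 and Lgals3bp. Over the whole table, 725 of 15727 genes were then called higher, against 579 of 15505 in the main fit. The count of members was 0 without any 1 of WT IgG1 replicates 1, 2, 3 and 5 or WT aPD1 replicates 1, 2 and 5, and 1 without WT aPD1 replicate 3. Without WT IgG1 replicate 3 and B2mKO aPD1 replicate 2 together it was 2, with 797 of 15678 genes over the whole table. Among genes with the largest falls in Jak1KO tumours, Ifit1 changed by -0.06 ± 0.21, Rsad2 by -0.01 ± 0.26 and Mx2 by -0.30 ± 0.27 with aPD1, and none was called.

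In B2mKO tumours 0 of the 40 differed between aPD1 and IgG1 by edgeR or DESeq2, as for 0% of all 15505 genes by edgeR. At an unadjusted p under 0.05, 5 members were lower (Trim25, Oas2, Oas3, Parp14 and Eif2ak2), against 511 genes in either direction over the whole table. Without B2mKO aPD1 replicate 2 and WT IgG1 replicate 3 the count was again 0. The median was -0.20 (-0.054 without B2mKO aPD1 replicate 3 and -0.29 without B2mKO IgG1 replicate 3), and 35 changes were below 0, Oas3 being the lowest (-0.67 ± 0.29, adjusted p = 0.801). In Jak1KO tumours 0 of 40 differed by edgeR or DESeq2 (0% of all genes), and none at an unadjusted p under 0.05, against 172 genes overall. Their median was 0.14 (0.062 without Jak1KO aPD1 replicate 3 and 0.17 without replicate 2), with Oas3 highest (0.47 ± 0.30, adjusted p = 1).

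The difference of the aPD1 effect between genotypes was then tested. For Jak1KO minus WT, edgeR and DESeq2 called 0 of 40 (edgeR 0% of all genes), with 3 lower at an unadjusted p under 0.05, namely Uba7 (-0.72 ± 0.23, adjusted p = 0.312), Parp14 (-0.72 ± 0.31) and Dtx3l (-0.63 ± 0.22). Over the whole table, 1279 of 15505 genes had such a p in either direction. For B2mKO minus WT, edgeR called 0 of 40, where 0.0967% of all genes were called, and DESeq2 called 1, Dtx3l. There, 10 members were lower at an unadjusted p under 0.05, against 2550 of 15505 genes in either direction over the whole table. Among the 10 were Oas3 (-1.31 ± 0.41, adjusted p = 0.191), Parp14 (-1.10 ± 0.31, adjusted p = 0.135) and Dtx3l (-0.84 ± 0.22, adjusted p = 0.114). Without WT IgG1 replicate 4, edgeR called 6 members lower in B2mKO minus WT. Over the whole table, 126 of 15727 genes were then called lower, against 13 of 15505 in the main fit. Without WT IgG1 replicate 3 and B2mKO aPD1 replicate 2 together edgeR called 0 members in both differences. Both differences share the WT libraries.

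Of the 15 genes reported here that carry the interferon signal (receptors, kinases, transcription factors and feedback inhibitors), 5 were lower in Jak1KO than in WT under IgG1, Jak1 itself included (11.0% of all genes), and 1 was higher (7.23%). Stat2, a partner of Irf9 at the ISRE, was at 124, 112, 143, 238 and 96.0 CPM in WT IgG1 and 43.8, 44.1, 50.4, 44.6 and 47.5 in Jak1KO IgG1 (-1.63 ± 0.19, adjusted p = 4.54e-07). Irf9 was at 46.9, 38.2, 64.3, 67.1 and 35.3 and 20.5, 15.5, 20.0, 15.9 and 16.6 CPM (-1.51 ± 0.17). In neither gene did the groups overlap. Socs3, a feedback inhibitor, was lower (-0.86 ± 0.18), as was Irf1 (-0.48 ± 0.14), and Irf3 was higher (0.30 ± 0.08). Under aPD1, 9 of the 15 were lower (12.4% of all genes), with Jak1 (-1.72 ± 0.10), Irf9 (-1.95 ± 0.17), Stat2 (-2.15 ± 0.20), Irf1 (-1.26 ± 0.14), Socs1 (-1.54 ± 0.19) and Socs3 (-1.36 ± 0.18) the 6 with the smallest p.

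In B2mKO IgG1, 4 of the 15 were higher than in WT IgG1 (9.40% of all genes), namely Stat2 (0.70 ± 0.19), Tyk2 (0.57 ± 0.15), Irf9 (0.48 ± 0.17) and Jak1 (0.38 ± 0.10), and Socs3 was lower (-0.50 ± 0.18). Under aPD1, 5 of the 15 were lower in B2mKO than in WT (10.5% of all genes) and 3 were higher (9.86%). Lower were Socs3 (-1.13 ± 0.18), Irf1 (-0.78 ± 0.14), Socs1 (-0.76 ± 0.19), Irf8 (-0.74 ± 0.23) and Irf5 (-0.65 ± 0.22), and higher were Ifngr1 (0.43 ± 0.14), Ifnar1 (0.21 ± 0.07) and Ifngr2 (0.36 ± 0.12). With aPD1 in WT tumours 6 of the 15 rose (3.73% of all genes): Socs1 (0.99 ± 0.19), Irf1 (0.71 ± 0.14), Irf8 (1.11 ± 0.24), Irf5 (0.86 ± 0.22), Tyk2 (0.55 ± 0.15) and Socs3 (0.64 ± 0.18).

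Of 13 sensors of nucleic acid and their adaptors, 4 were lower in Jak1KO than in WT under IgG1 (11.0% of all genes) and 1 was higher (7.23%), while 7 were higher in B2mKO than in WT (9.40%). Zbp1, a sensor of Z-form nucleic acid, was at 148, 120.4, 223, 249 and 92.1 CPM in WT IgG1, 387, 425, 260.4, 409 and 338 in B2mKO IgG1 and 43.3, 41.4, 44.4, 32.1 and 49.0 in Jak1KO IgG1. Ifih1, or MDA5, was at 69.6, 76.0, 91.9, 110.0 and 55.8 CPM, 171, 144, 135, 165 and 175 CPM and 29.8, 31.5, 31.4, 28.3 and 31.7 CPM in the same groups. In both genes, shown in full after their values were seen, the 3 groups did not overlap. In Jak1KO, Zbp1 (-1.99 ± 0.22), Ifih1 (-1.40 ± 0.14), Dhx58 (-1.21 ± 0.23) and Tlr3 (-0.67 ± 0.12) were lower and the adaptor Mavs was higher (0.64 ± 0.12). In B2mKO, the 6 with the smallest p were Ifih1 (0.97 ± 0.14), Zbp1 (1.13 ± 0.21), Tlr3 (0.50 ± 0.12), Dhx58 (0.77 ± 0.22), Ikbke (0.55 ± 0.17) and Tlr7 (0.61 ± 0.20). Under aPD1 the same 4 sensors were lower in Jak1KO than in WT, with Sting1 (-0.93 ± 0.18) and Ikbke (-0.52 ± 0.17). In B2mKO against WT under aPD1, Ifih1 was higher (0.71 ± 0.14) and Ikbke (-0.61 ± 0.17) and Mavs (-0.37 ± 0.12) were lower. With aPD1 in WT tumours, Ikbke (1.01 ± 0.17), Tlr9 (1.62 ± 0.41) and Sting1 (0.71 ± 0.18) rose.

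Transcripts of the interferons themselves were rare. Of 18 type I interferon genes matched, 6 had 0 counts in all 30 libraries and only Ifnb1, which encodes interferon beta, passed the filter on low counts. Ifnb1 had 59 counts over the 5 WT IgG1 libraries, 49 in WT aPD1, 56 in B2mKO IgG1, 55 in B2mKO aPD1, 17 in Jak1KO IgG1 and 28 in Jak1KO aPD1. It was lower in Jak1KO than in WT under IgG1 (-1.81 ± 0.59, adjusted p = 0.0301), and not called under aPD1 (-0.82 ± 0.55, adjusted p = 0.317). The B2mKO rise of the effectors had no matching Ifnb1 difference that could be detected at this depth (-0.17 ± 0.46, adjusted p = 0.817).

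Targets known mainly for interferon gamma are given for contrast, from a list chosen with earlier results of these data known. Of 20 such genes, 17 rose with aPD1 in WT tumours (3.73% of all genes), with a median of 1.22. Of the 40 interferon-stimulated genes 2 did. Ido1 (3.14 ± 0.37) and Cd274, which encodes PD-L1 (1.96 ± 0.29), rose, and so did Ifng itself, from 26 counts in WT IgG1 to 420 in WT aPD1 (3.91 ± 0.67, adjusted p = 0.00118). In B2mKO against WT under IgG1, 3 of the 20 were higher (9.40% of all genes). Under aPD1, 17 were lower (10.5% of all genes, median -1.04), where none of the 40 was lower. In Jak1KO against WT, 13 of the 20 were lower under IgG1 (11.0% of all genes) and all 20 under aPD1 (12.4%, median -2.33). No test of the difference between the 2 lists was made.

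**Figure D5:**
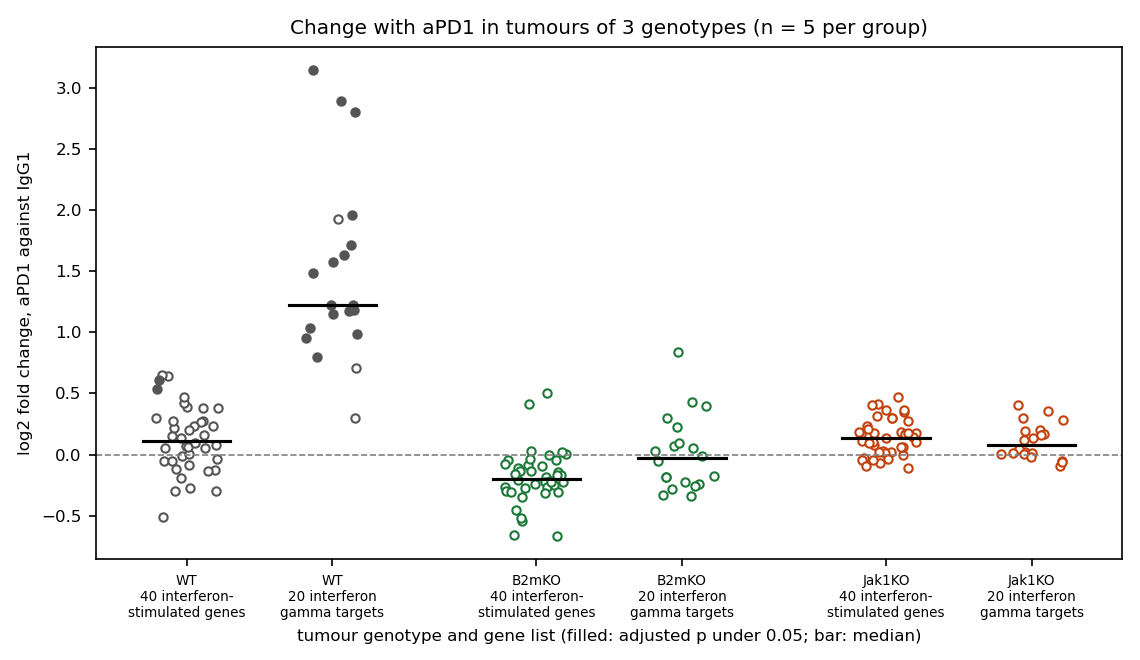
Log2 fold change with aPD1 (vertical axis) in WT, B2mKO and Jak1KO tumours for the 40 interferon-stimulated genes and 20 interferon gamma targets, 1 point per gene, filled where the adjusted p was under 0.05, with a bar at the median. In WT tumours 17 of 20 gamma targets are filled and 2 of the 40 are, and no point is filled in the other genotypes.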

How the data were processed

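RNA of 30 tumour libraries was read by paired-end sequencing from a TruSeq RNA library, and the authors deposited 1 table of raw counts per gene for all libraries and 1 per library. Per the file headers, reads were assigned to Ensembl genes (GRCm38, release 99) by featureCounts 2.0.0, with multi-mapping reads left out, no strand setting and no paired-end option, so each read of a pair was counted. Per the submitters' processing notes, the build was mm10 and the tools named, without roles, were edgeR 3.24.3, Cufflinks 2.2.1, STAR 2.5.2a and FastQC 0.11.2. The 30 library tables equalled the columns of the series table, and the header of 1, WT aPD1 replicate 2, named another alignment file. Symbols were found for 55144 of 55471 identifiers.

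Genes were kept by edgeR's filterByExpr (minimum count 10, minimum total 15), scaled by TMM (factors 0.939 to 1.04) and fitted in 1 quasi-likelihood model of the 6 group means (edgeR 4.0.16 in R 4.3.3, with limma 3.58.1), with Benjamini-Hochberg adjustment over 15505 genes and a threshold of 0.05. Fold changes are log2 ± SE. The fit was also run on simulated counts drawn gene by gene from the means and dispersions of these data. That run checks the code and not the results. Alternatives were DESeq2 1.42.0, its size factors within edgeR, no low-count filter, only the groups compared, a replicate block, the removal of WT IgG1 replicate 3 with B2mKO aPD1 replicate 2, and each library left out in turn. RPKM used total exon length. Chi-square per degree of freedom between replicates was 6.85 to 217 over 60 pairs, so no library was a copy. Interferon transcripts had few counts, which limits their precision.

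The members and gene lists were chosen with earlier results of these data known. All samples are given for all members in Jak1KO and WT under IgG1, and elsewhere for the 6 largest called changes in each direction, the smallest changes in Jak1KO, the B2mKO against WT members whose groups did not overlap, and a few others that the text returns to. This narrows the rule written at the outset, which asked for all members without overlap in every comparison. Signalling genes and sensors are named where called, up to 6 of the smallest p a direction, for the comparisons with WT; of the interferon gamma targets, a list for contrast, only examples are. A gene of the signalling list is not reported here. B2m and Jak1 served as checks of the labels. Of the members, 12 share exon sequence with another gene.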

Additional observations from a re-analysis of the deposited data

Results flagged for a closer look

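For each of the 40 genes in each of the 6 groups of 5 libraries, the lowest and highest values were compared with the rest of the group by Dixon's ratio at its 95% critical value for 5 samples, and 14 of 240 gene and group combinations passed; chance flags about 1 in 20. In B2mKO aPD1, replicate 3 was far below the other 4 libraries for Ifit1 (137 CPM against 278 to 297), Ifi44 (63.5 against 145 to 165), Oasl1 (43.7 against 82.3 to 97.4), Herc6 (48.0 against 68.7 to 76.8) and Trim30a (112 against up to 202). In WT IgG1, replicate 4 was far above the others for Oas2 (105 CPM against 21.9 to 44.7), Oas3 (102 against 28.6 to 44.2) and Oasl2 (356 against 146 to 204), and replicate 3 was far above them for Ifi27l2a (175 against 22.4 to 63.9). In B2mKO IgG1, replicate 3 was low for Oas3 (88.8 CPM against 153 to 166) and Samd9l (124 against 153 to 158). In Jak1KO aPD1, replicate 3 was high for Herc6 (21.6 CPM against 14.5 to 16.5) and Oasl2 (98.4 against 70.5 to 77.7). In WT aPD1, replicate 4 was low for Bst2 (207 CPM against 308 to 339).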

How the results depend on the processing

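Members called lower in Jak1KO against WT numbered 35 to 37 under IgG1 and 38 under aPD1 when any 1 library was left out, and 34 to 37 and 38 to 39 under the other settings. Members called higher in B2mKO against WT numbered 28 to 35 under IgG1 (21 to 38 under the other settings) and 11 to 22 under aPD1 (12 to 21). Over all genes, 646 of 14364 were called higher under IgG1 with only the groups compared. Without WT IgG1 replicate 3 and B2mKO aPD1 replicate 2 together, 2075 of 15678 were. The count higher with aPD1 in WT tumours was 0 to 7 with 1 library left out, 1 with no low-count filter and 0 with only the groups compared. Over all genes, 725 of 15727 were called higher without WT IgG1 replicate 4. With no low-count filter 419 of 34952 were, and with only the groups compared 52 of 14358. Members lower in B2mKO minus WT for the aPD1 effect numbered 1 by DESeq2 and 0 to 6 with 1 library left out. Over all genes, 91 of 15505 were called lower there by DESeq2 and 126 of 15727 without WT IgG1 replicate 4. With the replicate block the counts were 37, 38, 29 and 15 for these 4 genotype comparisons and 2 for aPD1 in WT. The numbers did not pair the samples: the median correlation of deviations was -0.0038 over 75 same-numbered pairs and -0.00718 over 300 others, and 6 of 30 libraries correlated best with their own number. The median aPD1 change in WT was -0.017 to 0.27, and that of the Jak1KO minus WT difference -0.11 to 0.13, with 1 library left out (WT IgG1 replicates 5 and 4 at the ends of both). Among single genes, recomputed for the 6 genotype comparisons and for aPD1 changes with an unadjusted p under 0.05, the sign turned in 3 uncalled changes. Epsti1 in Jak1KO IgG1 against WT IgG1 was 0.17 without WT IgG1 replicate 3 and B2mKO aPD1 replicate 2 together, and 0.00618 and 0.18 without WT IgG1 replicate 4 or 3, within a range of -0.31 to 0.18 over the libraries left out. Ifi27l2a in B2mKO IgG1 against WT IgG1 was -0.15 to -0.079 without WT IgG1 replicate 1 (-0.11), 2 or 5 or B2mKO IgG1 replicate 5, within a range of -0.15 to 0.91. Parp14 in B2mKO aPD1 against WT aPD1 was 0.14 without the pair of libraries together, and 0.00535 to 0.14 without WT aPD1 replicate 5 (0.016) or B2mKO aPD1 replicate 2 or 3, within a range of -0.17 to 0.14. The cause was not tested.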
